A study of Mus musculus with 2 samples.

Results

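The genes described here are 9 factors that control or carry out microRNA processing, chosen by name from their known roles: the let-7 regulators Lin28a, Lin28b, Trim71 and Dis3l2, the Microprocessor subunits Drosha and Dgcr8, the export factor Xpo5, the nuclease Dicer1 and the Argonaute Ago2. All 9 were among the 22556 genes of the count table. Polyadenylated RNA was sequenced from 2 replicates of 1 group, female XX mouse embryonic stem cells (mESCs) of the iXist-ChrX-Dom line, a Dom/129S x Cast hybrid whose own Xist promoter on the Dom/129S allele was exchanged for a TetOn promoter. The cells were untreated (no doxycycline, 0 hours), both replicates carried the same promoter exchange, and the series served to rank genes by their expression before Xist is switched on. With 1 group there is no contrast between conditions, and nothing in the labels says whether the replicates were separate cultures, so each test below compares these 2 libraries and the spread may be technical.

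MicroRNAs are cut from long primary transcripts in the nucleus by the Microprocessor, a complex of the nuclease DROSHA and its RNA-binding partner DGCR8. The hairpin precursors are carried to the cytoplasm by Exportin-5, cut again by DICER, and loaded onto Argonaute proteins, which silence messages that pair with the microRNA's seed. In pluripotent cells LIN28 proteins bind let-7 precursors, recruit terminal uridylyltransferases and send the tailed precursor to the exonuclease DIS3L2, so that mature let-7 stays low until differentiation. LIN28A, LIN28B and TRIM71 messages are themselves known let-7 targets.

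The sequences at the centre of this circuit are shown first, because the libraries measured messages and not mature microRNAs. All come from the C57BL/6J reference (microRNAs from RefSeq, GRCm38.p6; messages from GENCODE M21 on GRCm38), while the cells were a Dom/129S x Cast hybrid, so strain differences are not shown. Among the mouse let-7 entries, 12 loci giving 10 different mature sequences shared the seed GAGGUAG (bases 2 to 8, in capitals), and let-7j alone differed in the last seed base. The sequences below are from an autosomal locus, the X-linked loci, let-7j, and the stem cell and miR-125 families used for comparison.
let-7a: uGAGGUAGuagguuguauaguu
let-7f: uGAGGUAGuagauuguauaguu
miR-98: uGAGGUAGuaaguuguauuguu
let-7j: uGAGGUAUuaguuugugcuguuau
miR-125b: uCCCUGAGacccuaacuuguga
miR-294: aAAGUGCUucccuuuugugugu

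LIN28 is known to recognise a GGAG stretch near the base of the let-7 precursor loop. The letters GGAG, searched on the hairpin strand only since the precursor is single RNA, occurred between the mature arms of 8 of the 11 let-7 family hairpins with 1 annotated sequence on each arm, against 52 of all 644 such mouse hairpins (8.07%). The 3 without it were let-7c-2, let-7b and miR-98. The segment searched was 23 to 36 bases long in the 11 let-7 family hairpins, and the 644 hairpins were not matched for its length. In the 8 hairpins the last G of the motif lay 3 or 4 bases before the annotated 3′ arm. A match describes letters and is not a measured binding site. A pair with the motif (in capitals) and a pair without it are given below to show that let-7f-2 and miR-98, which lie close together on the X chromosome, differ in this respect.
let-7g (chr9:106178840-106178927, plus strand): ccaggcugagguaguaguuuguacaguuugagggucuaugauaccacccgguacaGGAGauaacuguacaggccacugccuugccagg
let-7f-2 (chrX:151912346-151912428, plus strand): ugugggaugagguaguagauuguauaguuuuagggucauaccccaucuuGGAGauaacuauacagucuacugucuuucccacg
let-7b (chr15:85707319-85707403, plus strand): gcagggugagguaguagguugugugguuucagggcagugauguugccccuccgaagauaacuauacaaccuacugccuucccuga
miR-98 (chrX:151913214-151913321, plus strand): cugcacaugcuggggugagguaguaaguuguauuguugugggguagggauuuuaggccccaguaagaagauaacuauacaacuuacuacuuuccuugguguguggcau

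The complement of the let-7 seed, CTACCTC on the message strand, was searched in the 3′ UTR of the transcript with the longest coding sequence of each gene. It occurred in 8.23% of the 19565 3′ UTRs searched, and 0.158% held 3 or more. Of the 9 genes 4 held it, with 2 matches in Lin28a, 4 in Lin28b, 4 in Trim71 and 3 in Ago2, while Dis3l2, Drosha, Dgcr8, Xpo5 and Dicer1 held none. The 13 matches are printed in windows of 30 bases with the match in capitals, message strand, 5′ to 3′.
Lin28a (chr4:134005185-134005214): agtgcacagcctgttgaaCTACCTCatttt
Lin28a (chr4:134004547-134004576): tttgagatcgccacaaacCTACCTCactgt
Lin28b (chr10:45381018-45381047): ttcacccgggcgggaagtCTACCTCatgca
Lin28b (chr10:45378644-45378673): acatatacttgttagtaaCTACCTCtgagt
Lin28b (chr10:45378472-45378501): tctgtttacagcacatggCTACCTCccagc
Lin28b (chr10:45377056-45377085): tggaaatgatggcaccgaCTACCTCttcaa
Trim71 (chr9:114512468-114512497): tacaacattgcctaagtcCTACCTCagctt
Trim71 (chr9:114512372-114512401): tgaagtgataatttctatCTACCTCaactc
Trim71 (chr9:114509043-114509072): ttgtttagtatggattttCTACCTCaattt
Trim71 (chr9:114509017-114509046): attttggcaaaaagttgtCTACCTCacgtc
Ago2 (chr15:73101720-73101749): tagacagatgcataaaagCTACCTCtgact
Ago2 (chr15:73100036-73100065): cagcaggtggcctctgtcCTACCTCcaggc
Ago2 (chr15:73097978-73098007): ttcttttacaatgtggatCTACCTCagtta

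An A next to the match, opposite the first base of the microRNA, is a known feature of strong sites, and 8 of the 13 matches had it. These were both of Lin28a, all 4 of Trim71, 1 of the 4 in Lin28b and 1 of the 3 in Ago2. The share of matches with this A over all 3′ UTRs was not computed. Long 3′ UTRs hold more matches by length alone. The 3′ UTR was 2775 bases in Lin28a, 4445 in Lin28b, 5512 in Trim71 and 11064 in Ago2, against a median of 833 over coding genes. Among 3′ UTRs within 20% of the same length, the share with as many matches was 2.09% for Lin28a, 0.286% for Lin28b, 0.627% for Trim71 and 1.54% for Ago2, as a description of this annotation. These sets include the gene itself and held 2009, 1050, 638 and 65 3′ UTRs in that order, so the share for Ago2 rests on few. Of the genes without a match, Drosha had a 3′ UTR of 168 bases, but that of Dicer1, at 3851 bases, was longer than that of Lin28a.

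The miR-125 seed match CTCAGGG was found in 12.3% of all 3′ UTRs and in 6 of the 9 genes: 1 each in Lin28a, Lin28b, Trim71, Dis3l2 and Dicer1, and 2 in Ago2. miR-125 is, like let-7, a microRNA of differentiated cells, and all 4 let-7 regulators held a match. Among 3′ UTRs of like length, however, a match was common for the longer ones: 24.8% at the length of Lin28a, 32.1% for Lin28b, 37.1% for Trim71, 30.2% for Dicer1 and 50.8% for Ago2, against 4.06% for the short 3′ UTR of Dis3l2. The complement of the seed shared by miR-294 and its relatives, AGCACTT, was found in 13.6% of all 3′ UTRs and in 2 of the 9 genes, Lin28b and Trim71, at whose lengths 42% and 50.3% of 3′ UTRs held it. The 3 windows below show the miR-125 match in Lin28a, Lin28b and Trim71.
Lin28a (chr4:134005297-134005326): ctcaggtacatgagcaatCTCAGGGataat
Lin28b (chr10:45378794-45378823): tcaggacaaagaactttgCTCAGGGaacat
Trim71 (chr9:114512555-114512584): tttcaaagaagaaatcgtCTCAGGGatatt

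**Figure D1:**
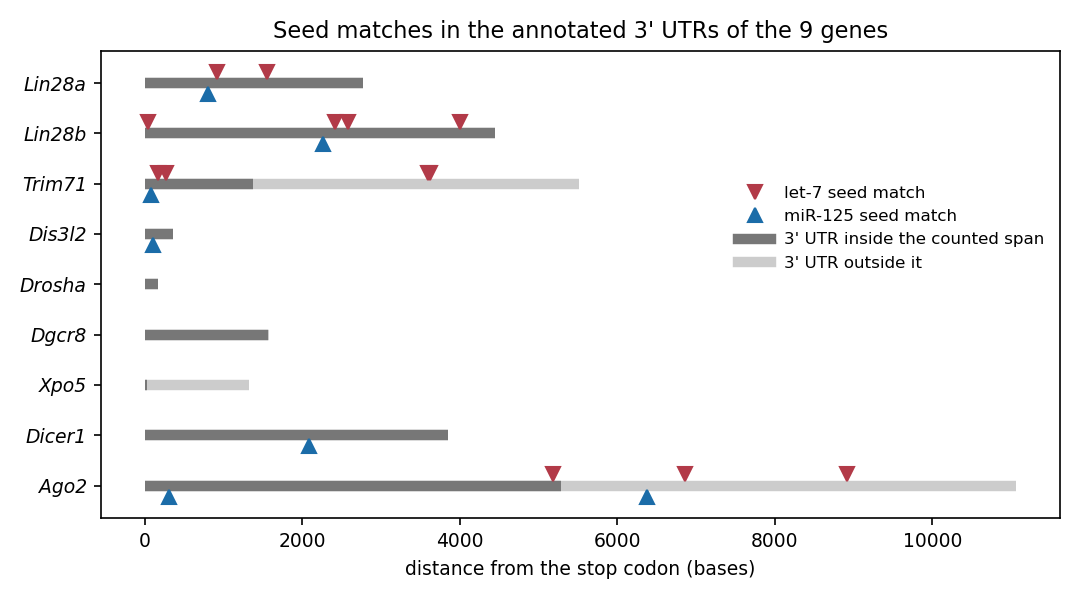
Seed matches along the annotated 3′ UTRs of the 9 genes; the x axis is the distance from the stop codon in bases, red triangles mark let-7 matches and blue triangles miR-125 matches. Dark bars lie inside the span over which fragments were counted and light bars outside it, so 4139 bases of Trim71 and 5780 bases of Ago2, with 4 of the 13 let-7 matches, were not counted.

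The assigned fragments came to 23716499 in replicate 1 and 20275749 in replicate 2. At this depth a count of 0 would allow up to 0.126 and 0.148 CPM (counts per 1000000 assigned fragments). All 10 embryonic stem cell markers listed for the check had a mean of at least 10 TPM (transcripts per 1000000), from Pou5f1, at 63.7 (110.2 in replicate 1 and 17.2 in replicate 2), to Tdgf1, at 2282, whereas no marker of neural precursors, feeder fibroblasts or primitive endoderm reached 10 TPM. The label mESC to NPC names a differentiation, and the neural precursor markers Sox1 and Olig2 had 0 counts in both libraries, although Sox1 shares its exons with another gene of the same strand and fragments in such overlaps were not counted for either gene. The summed level of the 8 fibroblast markers was 2.49 CPM in replicate 1 and 0.888 CPM in replicate 2, with Lum at 0 in both and Thy1, with 32 and 2 counts, making up most of the sum in replicate 1. The libraries themselves differed: by library totals 9 of the 10 stem cell markers were lower in replicate 2, most of all Dppa5a, where 45.7% of all genes tested were. Under TMM factors, another scaling of the libraries, only 3 of the 10 had a log2 ratio above 0: Nanog (0.08), Klf4 (0.11) and Zfp42 (0.30). The rest stayed below 0, from −0.01 (Tdgf1) to −2.50 (Pou5f1) and −2.81 (Dppa5a). Over autosomal genes the log2 ratio between replicates fell with GC content (Spearman's rho of −0.64 over 9246 genes, which share both libraries).

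TPM, the level per length, was computed with the union of annotated exons as length. Fragments were counted over whole transcript spans, introns included, so intronic and exonic fragments of a gene cannot be told apart. For 3 of the 9 genes the counted span held under 80% of the exonic length: 55.6% in Trim71, 58.1% in Ago2 and 73% in Xpo5. The other 6 had at least 97.8% inside it. For the 3 genes with under 80% a second TPM is given with the exonic length inside the counted span, a choice made after seeing the data. The median of the 9 genes was 78.5 TPM, beside 1.85 for all genes of the table with a length and 18.4 for the 12258 genes with at least 1 TPM. All 9 genes had at least 10 counts in each replicate, the lowest count being 1113 (Xpo5, replicate 2).

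Lin28a, the cytoplasmic LIN28 protein that recruits the uridylyltransferases, was counted 4159 times in replicate 1 and 2068 times in replicate 2. These counts gave 158 and 97.6 TPM, a mean of 128 ± 42.6 TPM (SD, n = 2). Replicate 1 was the higher, and by library totals no other of the 9 genes differed as much. The log2 CPM ratio of replicate 2 to replicate 1 was −0.78 (adjusted p = 4.81e-93, two-sided exact binomial test with Benjamini-Hochberg adjustment over 14536 genes). This p and those below set 1 library against 1 library and cover counting error only, with fragments taken as independent molecules, and 60.8% of all genes tested passed.

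Lin28b, the LIN28 paralog, had 2849 counts in replicate 1 and 3029 in replicate 2, or 70.1 and 92.7 TPM, with a mean of 81.4 ± 16 TPM (SD, n = 2). By library totals it was the only one of the 9 genes with a higher value in replicate 2 that passed the exact binomial test (log2 ratio 0.31, adjusted p = 4.53e-16). Its ratio was 0.57 with TMM factors, larger in size than that of Lin28a (−0.53), and 0.09 with the GC trend removed. Its transcript also had the lowest GC content of the 9, 40.6%, where the others lay between 47.3% and 53.8%.

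The pair therefore stood in a different ratio in each library. Lin28a exceeded Lin28b 2.25-fold in replicate 1 and 1.05-fold in replicate 2, a mean log2 ratio of TPM of 0.62 ± 0.78 (SD, n = 2), so the difference between the paralogs was smaller than its own replicate spread. Lin28a supplied 69.2% of the summed LIN28 TPM in replicate 1 and 51.3% in replicate 2. Without correction for length the mean log2 ratio was 0.00, and with the deposited span length, which is 17.3 times the exonic length in Lin28b and 4.42 times in Lin28a, it was 2.59.

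Trim71, a ubiquitin ligase and RNA-binding protein that represses messages in stem cells, had 1769 counts in replicate 1 and 1592 in replicate 2. Its level was 25.2 and 28.2 TPM, a mean of 26.7 ± 2.12 TPM (SD, n = 2), and 43.4 ± 3.54 TPM over the exons inside the counted span. The replicates lay close together, and their difference did not pass the exact binomial test (log2 ratio 0.07, adjusted p = 0.197). Under TMM factors, which shifted every log2 ratio by 0.26, Trim71 did pass, with replicate 2 higher, as it did with the GC trend removed (log2 ratios 0.33 and 0.69).

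Dis3l2, the exonuclease that degrades uridylated precursors, had 1845 counts in replicate 1 and 1509 in replicate 2, or 77.8 and 79.1 TPM, and a mean of 78.5 ± 0.94 TPM (SD, n = 2). The small difference did not pass the exact binomial test (log2 ratio −0.06, adjusted p = 0.273), but with TMM factors or the GC trend removed it did, with replicate 2 higher (log2 ratios 0.19 and 0.46). Its counted span was 109.8 times its exonic length, so its level depended most on the length used: the span length gave 3.72 TPM, the lowest of the 9 genes. How many of its fragments were intronic was not tested.

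**Figure D2:**
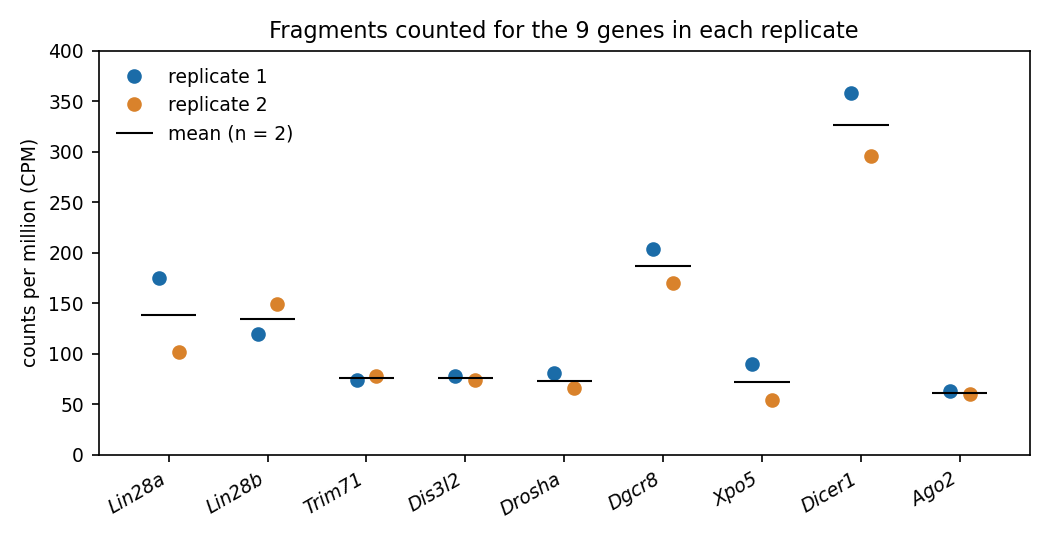
CPM (y axis) of the 9 genes (x axis) in replicate 1 (blue) and replicate 2 (orange), with the mean of 2 replicates as a line. By library totals Lin28a, Xpo5, Dicer1, Dgcr8 and Drosha were lower in replicate 2, Lin28b was higher, and Trim71, Dis3l2 and Ago2 lay close together.

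Dgcr8, which recognises the primary hairpin, had 4829 counts in replicate 1 and 3449 in replicate 2. This corresponded to 149 and 132 TPM, a mean of 140.4 ± 11.8 TPM (SD, n = 2). Replicate 2 was lower by the exact binomial test (log2 ratio −0.26, adjusted p = 3.33e-15), a call lost with TMM factors (0.00), with DESeq2 size factors and with the GC trend removed (0.01). Of its 50-base words, 8.15% also occurred in transcripts of other genes, the highest share among the 9, so part of its reads could be shared.

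Drosha, the nuclease of the complex, had 1919 and 1350 counts, or 55.8 TPM in replicate 1 and 48.8 in replicate 2, and a mean of 52.3 ± 4.94 TPM (SD, n = 2). By library totals it was also lower in replicate 2 (log2 ratio −0.28, adjusted p = 1.25e-07, exact binomial test). That call was lost with TMM factors (−0.02) and turned to a higher value in replicate 2 with the GC trend removed (0.24). The ratio of the Microprocessor subunits was nearly the same in both libraries: the log2 ratio of Dgcr8 to Drosha was 1.41 in replicate 1 and 1.43 in replicate 2, or 1.42 ± 0.02 (SD, n = 2). Dgcr8 was above Drosha under every length tried, by a log2 ratio of 1.34 without length and 2.99 with the span length.

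Xpo5, which carries precursors out of the nucleus, had 2141 counts in replicate 1 and 1113 in replicate 2. The level was 56 and 36.2 TPM, a mean of 46.1 ± 14 TPM (SD, n = 2), or 57 ± 17.2 TPM over the exons inside the counted span. By library totals it had the largest difference next to Lin28a, with replicate 2 lower (log2 ratio −0.72, adjusted p = 8.86e-42, exact binomial test).

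Dicer1, which cuts the precursor to the mature duplex, had the most counts of the 9 genes, 8479 in replicate 1 and 5998 in replicate 2. Per length this was 114 and 101 TPM, a mean of 108 ± 9.74 TPM (SD, n = 2). Replicate 2 was lower (log2 ratio −0.27, adjusted p = 1.95e-28, exact binomial test), by a ratio like those of Dgcr8 and Drosha, and the call was lost with TMM factors (−0.02).

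Ago2, the Argonaute with slicer activity, had 1496 counts in replicate 1 and 1220 in replicate 2. It was the lowest of the 9 genes at 14.4 and 14.6 TPM, a mean of 14.5 ± 0.144 TPM (SD, n = 2), or 22.6 ± 0.271 TPM over the exons inside the counted span. The exact binomial test did not separate the replicates (log2 ratio −0.07, adjusted p = 0.295), but with TMM factors or the GC trend removed it did, with replicate 2 higher (0.19 and 0.25).

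Ordered by mean TPM, the genes ran Dgcr8, Lin28a, Dicer1, Lin28b, Dis3l2, Drosha, Xpo5, Trim71, Ago2. The ranges of the 2 replicates overlapped between Dgcr8 and Lin28a, Lin28a and Dicer1, Lin28b and Dis3l2, and Drosha and Xpo5, so these neighbours were not separated. Dicer1 lay above Lin28b, Dis3l2 above Drosha, Xpo5 above Trim71 and Trim71 above Ago2 without overlap. With the exons inside the counted span, Xpo5 moved above Drosha and the range of Trim71 overlapped those of Drosha and Xpo5, while Ago2 remained last. The deposited span length gave another order, with Lin28a first and Drosha and Dis3l2 last.

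**Figure D3:**
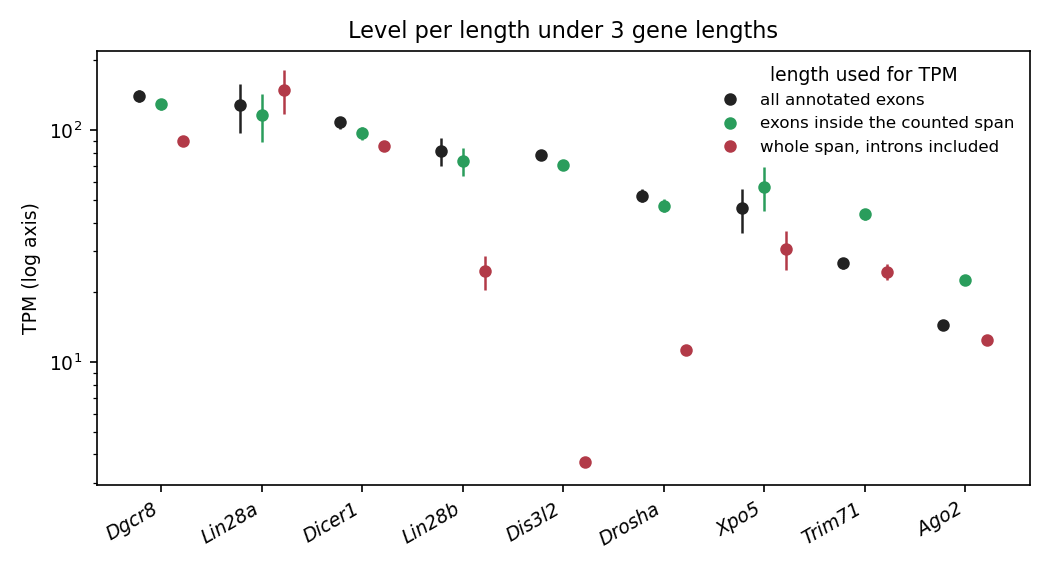
Mean TPM (y axis, log scale) of the 9 genes, ordered by level, computed with all annotated exons (black), the exons inside the counted span (green) and the whole span with introns (red). Points are means of 2 replicates and lines join the replicate values; Dis3l2 moved from 78.5 to 3.72 TPM with the span length, and Trim71 and Ago2 were at 43.4 and 22.6 TPM with the exons inside the span.

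Counts of 6 of the 9 genes differed between the replicates, 5 lower in replicate 2 (Lin28a, Drosha, Dgcr8, Xpo5 and Dicer1) and 1 higher (Lin28b). Over all 14536 genes tested, 60.8% differed, 45.7% lower and 15.1% higher in replicate 2, with a median log2 ratio of −0.31 beside −0.26 for the 9 genes. The share among the 9 genes was near this background. With TMM factors the count was again 6, but with 2 lower (Lin28a and Xpo5) and 4 higher (Lin28b, Trim71, Dis3l2 and Ago2), against 57.7% of genes. Relative to the GC trend, 8 of the 9 differed, against 45.1% of genes, and Lin28a, Xpo5 and Dicer1 were then the 3 lower in replicate 2. The log2 ratio left after removing that trend was −0.38 for Lin28a, −0.29 for Xpo5, 0.09 for Lin28b and 0.69 for Trim71. Lin28a and Xpo5 were thus lower in replicate 2, and Lin28b higher, under each of these scalings.

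**Figure D4:**
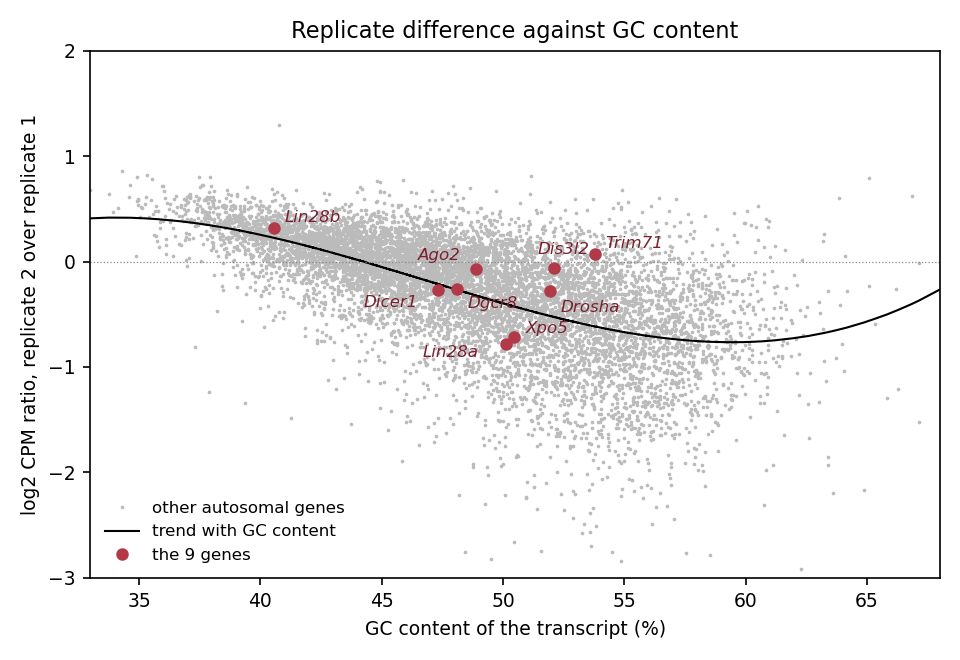
Log2 CPM ratio of replicate 2 to replicate 1 (y axis) against transcript GC content in percent (x axis) for autosomal genes (grey), with their trend (black line) and the 9 genes (red). Lin28b, at 40.6% GC, lay above 0, whereas Lin28a and Xpo5 lay below both 0 and the trend, and Trim71, at 53.8% GC, lay above the trend. Genes beyond the axis limits are not drawn.

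Around the 9 genes, the partners of each step were measured from lists. Called differences in these lists are by library totals, beside 45.7% of all genes lower and 15.1% higher in replicate 2. Under TMM factors, where 46.5% of all genes tested had a log2 ratio above 0, the balance moved towards replicate 2, and the number above 0 is given for the lists of 6 or more genes. All 6 factors of precursor uridylation and let-7 binding had at least 10 TPM, with a median of 133 TPM. By library totals 4 were higher and 1 lower in replicate 2, and with TMM factors 5 of the 6 lay above 0. The range ran from Khsrp, a factor that promotes let-7 maturation, at 15.5 TPM, to Hnrnpa1, at 514 TPM. By library totals Khsrp also had the largest called replicate difference of this list, with 18.7 TPM in replicate 1 and 12.3 in replicate 2 (log2 CPM ratio −0.69, and 0.05 with the GC trend removed). Syncrip was close to it in size (0.66), and exceeded it under TMM factors (0.91 against −0.43) and with the GC trend removed (0.80). Exons of Hnrnpa1 overlap another annotated gene of the same strand over 80.7% of their length, so its value is uncertain. Of the terminal uridylyltransferases that act with LIN28, Zcchc11 (TUT4) supplied 83 ± 2.78% and Zcchc6 (TUT7) 17 ± 2.78% of their summed TPM (SD, n = 2), a pair named after its values were seen. With the span length the shares were 66.3% and 33.7%.

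The 6 Microprocessor cofactors had a median of 705 TPM beside 96.3 TPM for the subunits Drosha and Dgcr8, with Ddx5, an RNA helicase, highest at 1901 TPM and Adar, an RNA-editing enzyme, lowest at 10.2 TPM. Each of the 6 differed between replicates by library totals, beside 60.8% of all genes, with 3 lower and 3 higher in replicate 2 (4 above 0 with TMM factors), most of all Srrt, at 54.3 TPM in replicate 1 and 28 in replicate 2. The 3 export cofactors ran from Phax, at 66.5 TPM, to Ran, the GTPase that drives export, at 1222 TPM, and Xpo1 showed the largest called difference, with 821 and 1149 TPM. Xpo5, at 46.1 TPM, lay below all 3, but over the exons inside the counted spans its 2 values, 44.9 and 69.2 TPM, enclosed those of Phax, 59.8 and 67.5 TPM.

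The double-stranded RNA-binding partners of DICER were unequal. Prkra (PACT) was at 68.3 TPM and Tarbp2 (TRBP) at 2.88 TPM, so that Prkra supplied 96 ± 0.353% of their sum (SD, n = 2). Tarbp2 shares 49.05% of its 50-base words with other transcripts, and its 43 and 22 counts may therefore miss reads. Prkra was lower in replicate 2, at 57.4 against 79.2 TPM.

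Among the Argonautes, Ago1 supplied 37 ± 7.25%, Ago2 between 28.7% and 31.3%, Ago3 24.6 ± 4.69% and Ago4 8.46 ± 0.739% of their summed TPM (SD, n = 2). Over the exons inside the counted spans the shares were 25.7% for Ago1, 34.8% for Ago2, 33.8% for Ago3 and 5.72% for Ago4, because the long 3′ UTRs of Ago2 and Ago3 were counted only in part. Ago4 was lowest under both lengths, whereas the order of Ago1, Ago2 and Ago3 changed with the length. By library totals Ago1 was the Argonaute with the largest replicate difference, at 21.2 TPM in replicate 1 and 14.9 in replicate 2, whereas under TMM factors Ago3 (log2 ratio 0.46) exceeded Ago1 (−0.34).

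The 18 silencing effectors that act after Argonaute (TNRC6 proteins, deadenylases and decapping factors) had a median of 72.3 TPM, and 17 had at least 10 TPM. Cnot7, a deadenylase subunit, was highest at 461 TPM, and Edc4, a decapping scaffold, was lowest at 8.67 TPM and differed most between replicates, with 12.6 and 4.74 TPM. By library totals 8 were lower and 5 higher in replicate 2, and with TMM factors 12 of the 18 lay above 0. None of the 18 held a let-7 seed match in its 3′ UTR, beside 8.23% of all 3′ UTRs searched. Among 3′ UTRs of like length the share with a match ran from 1.58% (Xrn1) to 44.4% (Tnrc6b). The absence is therefore given as a description only.

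Of 19 listed let-7 targets, 11 held the seed match, beside 8.23% of all 3′ UTRs searched. The median 3′ UTR was 2160 bases in this list and 833 over coding genes, so these shares were not matched for length. Of the 19 targets, 16 had at least 1 TPM, beside 12258 of the 22146 genes with a TPM, and 13 had at least 10 TPM. The median of the list was 38.7 TPM. Hmga1 was at 0 counts in both replicates, and 92.6% of its exonic length lies in another gene of the same strand, so its level was not measured by this table. Cdc34, a ubiquitin-conjugating enzyme, showed the largest called difference by library totals, at 7.35 TPM in replicate 1 and 4.05 in replicate 2, and of the 18 tested 6 were lower and 4 higher in replicate 2, while with TMM factors 14 lay above 0. The 5 listed messages repressed by TRIM71 ran from Egr1, at 3.84 TPM, to Rbl1, at 68.2 TPM, with a median of 27.9 TPM. By library totals Mbnl1 differed most of these, at 26.4 and 38.6 TPM (log2 CPM ratio 0.46, and 0.11 with the GC trend removed). No value of mature let-7 or of TRIM71 activity was measured here, so these levels stand as a description.

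**Figure D5:**
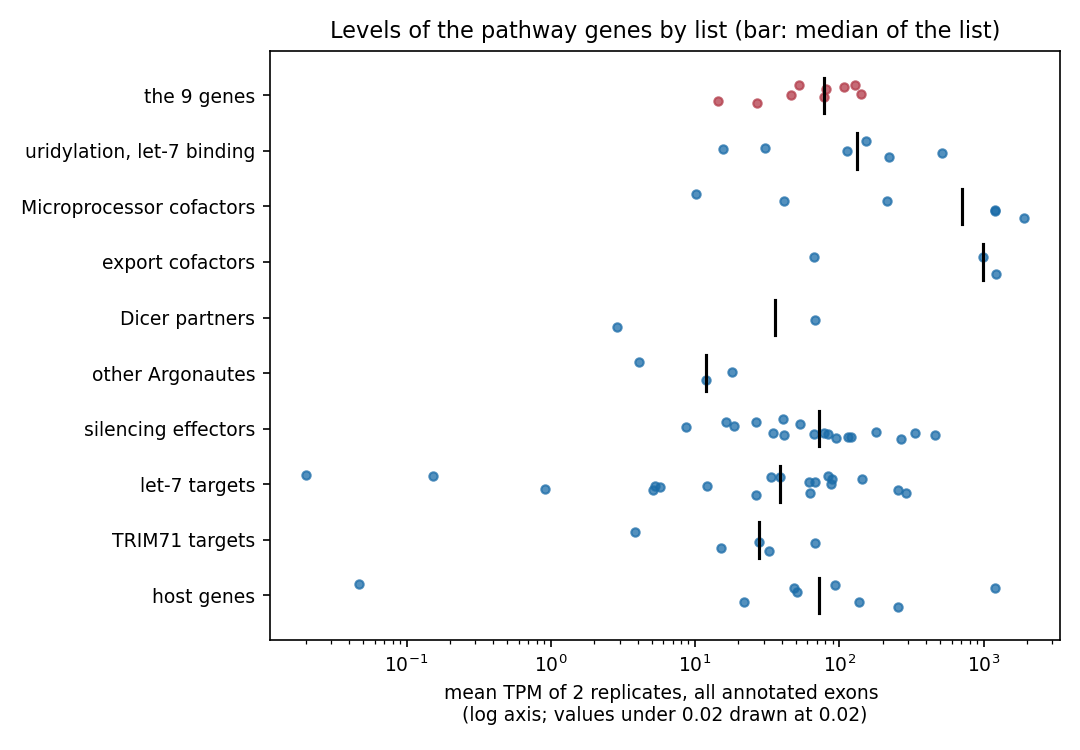
Mean TPM of 2 replicates (x axis, log scale) of the 9 genes (red) and of each list of partner genes (blue), one point per gene, with the list's median as a bar. The 9 genes lay between 14.5 and 140.4 TPM, cofactors of the Microprocessor and of export had medians of 705 and 985 TPM, and the 3 other Argonautes a median of 11.9 TPM.

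Hairpins of the let-7 family that lie inside a gene of the table on the same strand could be set beside the level of that host. The X-linked let-7f-2 and miR-98 both lie within Huwe1, a ubiquitin ligase gene that had 28828 counts in replicate 1 and 21654 in replicate 2, and 254 TPM on average. let-7g lies within Wdr82, which had 4289 and 2696 counts. In contrast, let-7c-2 and let-7b lie within Mirlet7bhg, which had 1 count in replicate 1 and 0 in replicate 2. The other let-7 hairpins checked lay in no counted gene of their strand. The level of a host message is not the level of its microRNA, which is also set by the processing steps above. Of 9 listed host genes, 8 were matched in the table; Smc4, host of a miR-15/16 cluster, was highest at 1208 TPM, Mirlet7bhg lowest, and by library totals Mcm7 had the largest called difference, at 67.2 and 35.2 TPM. Of the 7 host genes tested, 4 were lower and 3 higher in replicate 2, and with TMM factors 4 lay above 0.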

How the data were processed

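The authors deposited 1 table of raw fragment counts with 2 columns, matched to the replicates by name, although the labels write a letter b after the library number and the columns do not. Per the file headers it was made with featureCounts 1.5.2, in paired-end and reverse-stranded mode, over transcript features (whole spans, introns included) summarised by gene on mm10. The submitters' processing notes also name Bowtie2 2.3.2 and STAR 2.4.2a, with no role given. The deposited length column holds the union of spans.

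TPM was computed from the counts with the union of exons of GENCODE M21 (basic set, GRCm38) as length. A length was found for 98.2% of the 22556 genes, 21239 by symbol and 907 by an older symbol. Of these, 17.9% had under 80% of their exonic length inside the counted span. Replicates were compared by a two-sided exact binomial test against library totals (Benjamini-Hochberg, adjusted p of 0.05, genes with at least 10 counts in total; scipy 1.17.1, statsmodels 0.14.6). The test was first run on simulated counts with counting error only. Those counts lack the GC trend of the real libraries, so they do not show how the test behaves on them. Log2 ratios used CPM with 0.5 counts added. Scaling factors came from edgeR 4.0.16 and DESeq2 1.42.0 (R 4.3.3), and the GC trend was a polynomial of degree 3 over autosomal genes with at least 50 counts. A gene with 0 counts allows up to 3; such limits, and the binomial p-values, cover counting error only.

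The 9 genes and the lists were chosen with earlier results of these data known. Named beside them are the highest, the lowest and the most replicate-variable called gene of each list, and X-linked list genes, except for items that are not reported here. Alternatives were other lengths, scalings, filters and leaving out a replicate. No protein sequences were used here.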

Additional observations from a re-analysis of the deposited data

How the results depend on the processing

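Of 89 alternatives over 23 results, 50 kept the direction and the side of the threshold, or moved a value by less than 1 SD of the 2 replicates or a count by less than 1.5 times, and 27 moved a value further. A direction changed in 7, 6 of them ratios between replicates, and with the direction kept 3 lost a call and 2 gained one. The deposited span length moved the median of the 9 genes from 78.5 to 24.6 TPM, the log2 ratio of Lin28a to Lin28b from 0.62 to 2.59 and that of Dgcr8 to Drosha from 1.42 to 2.99. With no length the ratios were 0.00 and 1.34. The longest-coding transcript gave a median of 68.9 TPM. The exons inside the counted spans, added after seeing the data, gave 70.9 TPM and a Dgcr8 to Drosha ratio of 1.46. Leaving out a replicate gave medians from 70.1 to 79.1 TPM and Lin28a to Lin28b ratios from 0.07 to 1.17. With 2 replicates, leaving out 1 cannot move a mean by as much as 1 SD. For means of TPM or of log2 ratios this alternative was therefore among the 50 by construction. Under TMM factors the replicate log2 ratio of Dis3l2 became 0.19 and that of Ago2 0.19, while Drosha, Dgcr8 and Dicer1 lost their calls and Trim71, Dis3l2 and Ago2 gained one, so that the 6 genes called were not the same 6 as by library totals. With the GC trend removed, the ratio became 0.46 for Dis3l2, 0.24 for Drosha, 0.01 for Dgcr8, whose call was lost, and 0.25 for Ago2, with 8 genes called. The cause of these changes was not tested. No filter on low counts, or 10 counts in each replicate, left 6 of the 9 genes called. No paired analysis was possible because there was only 1 group. With 2 libraries, the spread of each value rests on 1 difference.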
